A study of Mus musculus with 68 samples.

Results

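The genes described here build, operate and guard the protein-folding compartment of the secretory pathway, the endoplasmic reticulum (ER). They are 39 genes in 5 roles: ER chaperones, protein disulfide isomerases, factors of ER-associated degradation, subunits of the translocon and the signal peptidase, and stress sensors with their downstream arms. Only probe sets annotated to 1 of these symbols and to no other gene were used, and a gene with several was represented by the brightest on average. By this rule 36 of the 39 genes were measured, out of 30142 genes in all. Manf, Pdia4 and Sec61g share their probe sets with other annotated genes and have none of their own.

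The series measured RNA from the uterus of ovariectomized mice on 68 arrays and, by its title, asks what part oestrogen receptor alpha (ERα, encoded by Esr1) plays in the uterine response to insulin-like growth factor 1 (IGF1). The treatments were vehicle (saline), oestradiol (E2, 250 ng) and IGF1, the last given either by injection (50 ug) or from an implanted osmotic pump, and the labels do not say which mice received which. The injected IGF1 was in PBS and that of the pump in acetic acid, which no vehicle group received. Tissue was collected 2 h or 24 h after treatment, but vehicle tissue at 24 h only, so a comparison of a 2 h group with vehicle also spans a difference in time. The labels give no age. The mice were of several kinds, all on a C57Bl6 background. They were C57Bl6 wild types bought from a supplier (14 arrays), Ex3aERKO mice, which are Esr1-null in every cell (11 arrays), their wild-type littermates (14 arrays), ERaUtcKO mice, which are Esr1f/f;PgrCre+ (15 arrays), and the wild-type littermates of those (14 arrays). In ERaUtcKO mice Cre is driven by the progesterone receptor gene, so Esr1 is removed in cells that have expressed that gene. Each kind of mouse had all 5 treatments, which gives 25 groups. Of these, 18 hold 3 arrays, and 7 hold 2 because the authors left out an outlying replicate. The labels do not say whether replicates are separate animals, so p-values measure the spread between these arrays, with outlying arrays already removed.

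A protein with a signal sequence enters the ER through the SEC61 translocon, with the help of the translocon-associated (SSR) proteins, and the signal peptidase (SEC11 and SPCS subunits) removes its signal. Chaperones such as BiP (Hspa5), GRP94 (Hsp90b1) and the lectins calreticulin (Calr) and calnexin (Canx) then hold it while disulfide isomerases form its disulfide bonds, and proteins that fail to fold are returned to the cytosol for degradation. When unfolded protein accumulates, the sensors IRE1 (Ern1), PERK (Eif2ak3) and ATF6 start the unfolded protein response: IRE1 splices Xbp1 mRNA, ATF6 and spliced XBP1 induce chaperones, and PERK slows translation and, through ATF4, induces Ddit3 (CHOP) and Ppp1r15a (GADD34). In the uterus, E2 is known for growth and for the onset of secretion by the epithelium.

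Some arrays stood apart in ways that touch the comparisons below. Alb, the albumin gene of the liver, was above 14 on 7 arrays, against 13.30 at most on the others. These were the 3 vehicle arrays (17.53, 16.17 and 15.66) and 1 E2 2 h array of the C57 wild types, and, of the ERaUtcKO mice, vehicle replicates 2 and 3 and IGF1 2 h replicate 1. Member counts are therefore also given without these 7 arrays wherever they differ by over 1.5 times. Levels also differed between the 3 sets of mice, with array medians of 6.43 to 6.60 for C57, 5.82 to 6.15 for the Ex3aERKO experiment and 6.26 to 6.62 for the ERaUtcKO experiment, so no level was compared across sets. Esr1 itself was lower under vehicle in both knockouts, by 2.39 in Ex3aERKO and 1.21 in ERaUtcKO. Markers of the uterus were present, as the summed log2 level on wild-type arrays ran from 17.82 to 18.83 for 8 stromal genes, from 17.82 to 20.08 for 8 smooth muscle genes and from 14.02 to 16.81 for 11 epithelial genes.

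The promoters of several of these genes hold the ER stress response element (ERSE). It is the sequence through which NF-Y and ATF6 or XBP1 act in the unfolded protein response. These promoters are shown because 8 of the 9 genes with a match rose in each of the 4 wild-type comparisons with vehicle below. The other, Derl3, had low levels and rose in none. Per comparison, 16.9% to 24.5% of all genes rose, and 11 to 15 of the 20 measured genes with a promoter entry and no match. The Herpud1 stretch is shown for a related element. The element was searched as a CCAAT box and a CCACG box separated by 9 bases of any kind, on both strands, in the 250 bases before each gene start in RefSeq (GRCm38.p6). Promoter entries were found for 31 of the 39 genes, and 9 of these (29.03%) held a match, against 35 of all 27025 genes with an entry (0.13%). The 39 genes were listed for their roles in the ER and its stress response, with earlier results of these data known. Neither this contrast nor that of the genes that rose is therefore an independent result. Most genes with a match are chaperone genes, so match and role were not separated. Hsp90b1 held 2 matches. The related element ERSE-II, searched as ATTGG and CCACG separated by 1 base of any kind on both strands, was found in the Herpud1 promoter and in 10 genes in all (0.037%). The stretches below read 5′ to 3′ in the direction of the gene, with the fixed letters of the element in capitals and 10 bases on either side; CGTGG and ATTGG are the 2 boxes read from the opposite strand.
Hspa5: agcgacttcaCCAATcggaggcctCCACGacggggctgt
Hsp90b1: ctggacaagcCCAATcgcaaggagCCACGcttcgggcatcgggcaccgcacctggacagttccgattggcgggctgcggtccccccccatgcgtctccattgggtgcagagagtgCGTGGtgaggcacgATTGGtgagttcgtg
Calr: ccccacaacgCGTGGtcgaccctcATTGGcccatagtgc
Canx: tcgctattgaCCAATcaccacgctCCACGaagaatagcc
Dnajc3: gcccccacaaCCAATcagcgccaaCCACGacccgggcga
Creld2: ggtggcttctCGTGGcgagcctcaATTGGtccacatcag
Pdia6: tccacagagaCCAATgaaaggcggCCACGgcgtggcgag
Syvn1: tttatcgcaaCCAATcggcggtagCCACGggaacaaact
Derl3: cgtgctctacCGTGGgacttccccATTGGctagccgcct
Herpud1: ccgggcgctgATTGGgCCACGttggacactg
They lie at chr2:34772015-34772053 on the plus strand, chr10:86705523-86705666 on the minus strand, chr8:84847065-84847103 on the minus strand, chr11:50325790-50325828 on the minus strand, chr14:118937817-118937855 on the plus strand, chr15:88819510-88819548 on the plus strand, chr12:17266481-17266519 on the plus strand, chr19:6046522-6046560 on the plus strand, chr10:75893232-75893270 on the plus strand and chr8:94386367-94386397 on the plus strand. The palindromic oestrogen response element, searched as GGTCA and TGACC separated by 3 bases, was found in none of the 31 promoters and in 18 genes in all (0.067%). The XBP1 core TGACGTGG, searched on both strands, was likewise in none of the 31 (0.603% of all genes), and the ATF4 composite site TGATGNAA was in that of Herpud1 alone (3.907% of all genes). A match is a run of letters in this window and not evidence of binding.

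At 2 h of E2 in the wild types the largest rises among the 36 genes were those of Ern1, the gene of the sensor IRE1, and Ppp1r15a, whose product reverses the translation block set by PERK. Hspa5 (BiP) and Creld2 came next. In all, 23 genes rose and 3 fell (limma adjusted p under 0.05, two-sided), where 17.2% of all genes rose and 22.8% fell (40% called). Under quantile normalization the same count was 16 and 7. Values with ± are differences in log2 level between treated and vehicle arrays with their standard error (SE), here from 9 treated and 8 vehicle wild-type arrays over the 3 sets of mice. In bulk tissue, a change in the number of cells of a type and a change in RNA per cell cannot be told apart.

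Ern1 stood at 12.75, 12.78 and 12.61 after E2 in the C57 mice, against 9.64, 9.52 and 9.56 under vehicle. The Ex3aERKO littermates gave 11.25, 11.13 and 11.39 against 8.18 and 8.26, and the ERaUtcKO littermates 11.75, 11.62 and 11.60 against 8.91, 8.79 and 8.86. Every E2 array of a set lay above every vehicle array of that set, and the difference was 2.99 ± 0.07 (adjusted p = 2.79e-30), a 7.92-fold rise. Ppp1r15a had 9.42, 9.10 and 9.50 against 6.78, 6.78 and 6.86 in C57 mice and 9.54, 9.32 and 9.35 against 6.41 and 7.002 in the Ex3aERKO littermates. In the ERaUtcKO littermates it had 10.56, 9.51 and 9.98 against 7.24, 7.39 and 7.47. The groups were again apart in each set, with a difference of 2.61 ± 0.09 (adjusted p = 1.27e-24). The C57 vehicle arrays lay below 6.89, the 95th percentile of the background control probe sets in that set of mice, so the size of the rise there is uncertain. Ddit3, the other gene of the PERK arm, had 10.73, 10.49 and 10.61 after E2 and 10.70, 10.63 and 10.70 under vehicle in the C57 mice, 10.40, 10.26 and 10.33 and 10.77 and 10.81 in the Ex3aERKO littermates, and 10.74, 11.14 and 10.80 and 10.72, 10.94 and 11.27 in the ERaUtcKO littermates. The E2 arrays lay below vehicle in the Ex3aERKO littermates and overlapped it in the other sets. It did not pass the test, at -0.20 ± 0.12 (adjusted p = 0.187). A second probe set annotated to Ddit3 differed by -0.32, -0.79 and -0.66 in the 3 sets, and the mean of both probe sets was called lower, at -0.39. Eif2ak3, the gene of the sensor PERK, showed the largest fall, by 0.66 ± 0.06 (adjusted p = 2.78e-12), with levels of 8.61, 8.44 and 8.71 in E2-treated C57 mice against 9.39, 9.37 and 9.46 under vehicle. Xbp1, the target of IRE1, stood at 13.84, 13.64 and 13.87 after E2 and 13.21, 12.81 and 13.26 under vehicle in the C57 mice and at 11.60, 11.68 and 11.57 and 10.51 and 10.55 in the Ex3aERKO littermates. In the ERaUtcKO littermates it stood at 11.39, 11.58 and 11.46 and 10.50, 10.36 and 10.27, and its rise over the sets was 0.96 ± 0.10. The array does not separate spliced from unspliced Xbp1. Atf6 rose by 0.14 ± 0.04.

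Among the 10 measured chaperone genes, 8 rose at this time. Hspa5, the gene of BiP, went from 10.96 and 11.08 under vehicle to 13.27, 13.16 and 13.01 in the Ex3aERKO littermates and from 10.94, 11.15 and 11.28 to 13.15, 13.17 and 13.09 in the ERaUtcKO littermates. In the C57 mice its vehicle arrays were at 13.07, 12.63 and 12.86 and its E2 arrays at 14.23, 14.03 and 13.90. The groups did not overlap within any set, and the rise over the 3 sets was 1.77 ± 0.15 (adjusted p = 2.65e-13, 3.4-fold). Creld2, a secreted ER stress gene, rose by 1.38 ± 0.14, the co-chaperone Dnajb11 by 1.12 ± 0.14, and the BiP exchange factor Hyou1 by 0.95 ± 0.12. Calr rose by 0.89 ± 0.17 and Canx by 0.26 ± 0.09. Sdf2l1, a stress-induced partner of Dnajb11, did not pass the test at 0.15 ± 0.14 (adjusted p = 0.446), and Dnajb9, a BiP co-chaperone that restrains IRE1, fell by 0.26 ± 0.10 (adjusted p = 0.0261). That fall was not seen in the Ex3aERKO littermates taken alone, where Dnajb9 differed by 0.096.

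The folding enzymes and the entry machinery had smaller differences at 2 h, with medians of 0.31 for the isomerases and 0.31 for the translocon and signal peptidase, against 0.87 for the chaperones. Pdia6 and Pdia3 rose by 0.51 ± 0.16 and 0.31 ± 0.11, whereas P4hb, which also serves collagen hydroxylation, was at -0.06 ± 0.11. Of 10 translocon and signal peptidase genes, 6 rose, led by Ssr3 at 0.84 ± 0.07 and the channel subunit Sec61a1 at 0.66 ± 0.07. Sec61b, the beta subunit of the channel, was at 0.09 ± 0.15 (adjusted p = 0.702), and the signal peptidase subunit Sec11c fell by 0.45 ± 0.09. Spcs2 rose by 0.25 ± 0.07 on the deposited scale and was at -0.0041 under quantile normalization. Of 7 genes of ER-associated degradation, 3 rose, with Herpud1, which recruits the ubiquitin ligase complex, at 1.06 ± 0.13. Beside these values, all 8 stromal marker genes fell at this time (median -1.47), as did 3 of the 4 liver and red cell genes, and their part in the member values was not tested.

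**Figure D1:**
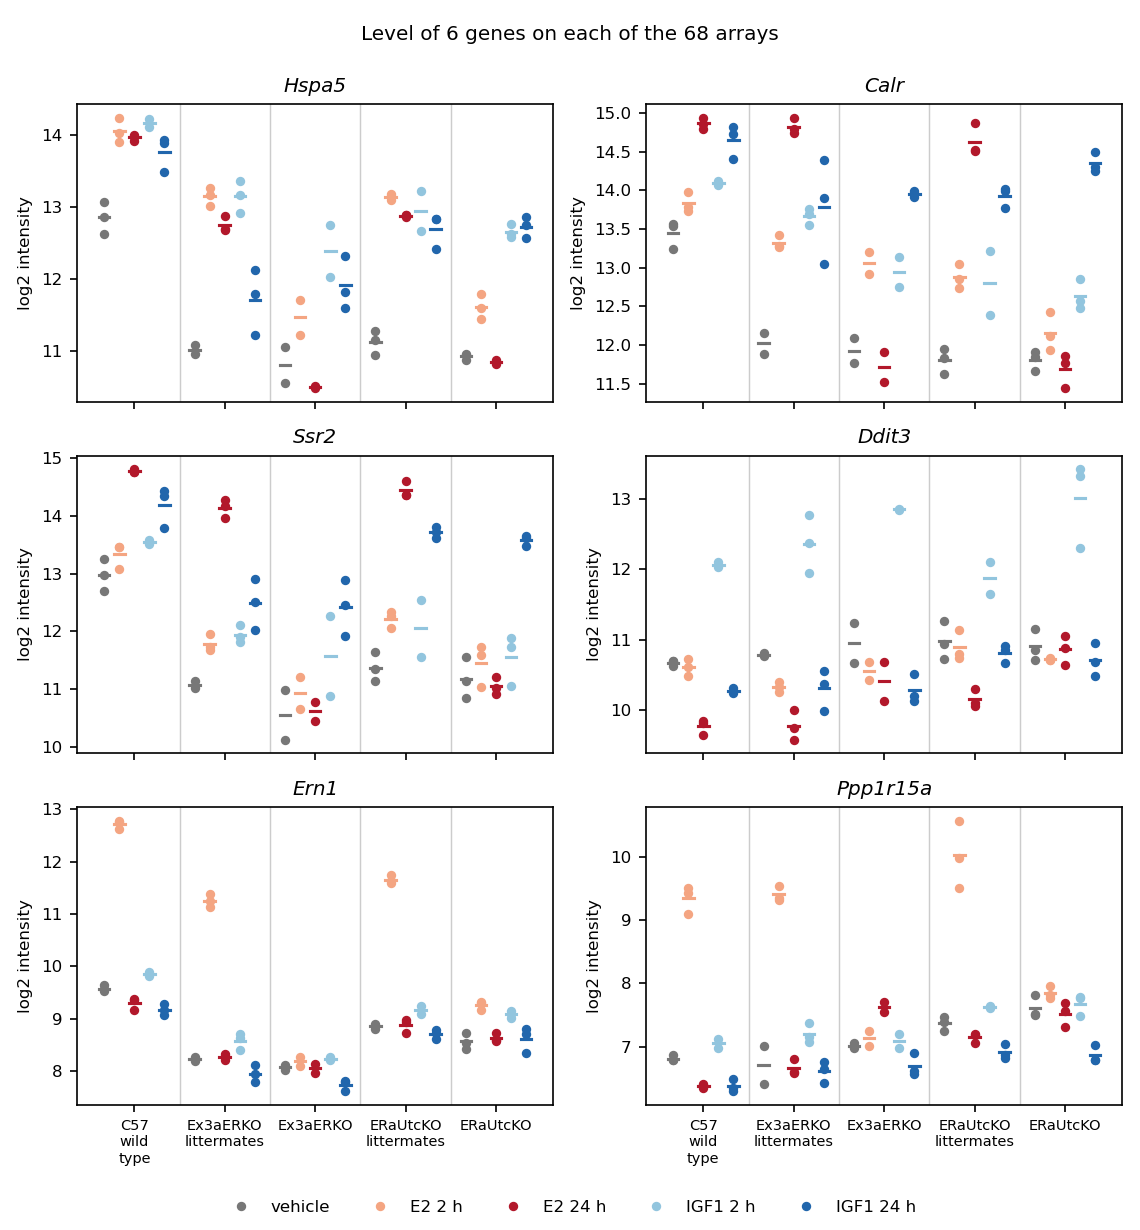
Log2 intensity of Hspa5, Calr, Ssr2, Ddit3, Ern1 and Ppp1r15a on each of the 68 arrays, grouped by kind of mouse and coloured by treatment, with a bar at each group mean. Ern1 and Ppp1r15a are high in the E2 2 h arrays of the 3 wild-type sets, Ddit3 in the IGF1 2 h arrays of all 5 kinds of mice, and Calr and Ssr2 in the E2 24 h arrays of wild types and the IGF1 24 h arrays of all 5 kinds.

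At 24 h of E2 the folding and entry genes were high, while Ern1, Ppp1r15a and Ddit3 were at or below vehicle. Of the 36 genes 29 rose and 3 fell, where 24.5% of all genes rose and 31.7% fell (56.2% called). Every one of the 10 translocon and signal peptidase genes rose, as did the 3 measured disulfide isomerases and 9 of the 10 chaperones. The median difference was 2.21 for the isomerases, 1.39 for the chaperones, 1.07 for the translocon and signal peptidase, 0.59 for ER-associated degradation and -0.01 for the sensors and stress arms, against -0.07 over all genes.

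Ssr2, a subunit of the translocon-associated complex, rose most, by 2.63 ± 0.17 (adjusted p = 2.37e-16, 6.17-fold). Its levels were 14.76, 14.80 and 14.75 after E2 against 12.98, 12.69 and 13.26 under vehicle in C57 mice, 13.96, 14.28 and 14.17 against 11.02 and 11.14 in the Ex3aERKO littermates and 14.37, 14.35 and 14.60 against 11.14, 11.35 and 11.64 in the ERaUtcKO littermates. All E2 arrays were above all vehicle arrays of their set, and the group means differed by 1.79, 3.05 and 3.06 in that order. Sec61b rose by 1.64 ± 0.15 (adjusted p = 2.7e-12), with 7.92, 8.24 and 7.78 against 6.83, 7.02 and 7.24 in C57 mice, 9.89, 9.75 and 9.74 against 7.76 and 7.68 in the Ex3aERKO littermates and 9.84, 9.73 and 10.09 against 8.18, 7.97 and 7.73 in the ERaUtcKO littermates. The groups did not overlap in any set. The lowest C57 vehicle array lay below 6.89, the background level given above for C57, so the size of the rise there is uncertain. Sec11c, which had fallen at 2 h, was 1.30 ± 0.09 above vehicle. The other 7 genes of this role rose by 0.51 (Spcs1) to 1.38 (Ssr1).

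Calr, the calcium-binding lectin chaperone, rose by 2.32 ± 0.17 (adjusted p = 4.41e-15, 4.98-fold). Its E2 arrays lay in a narrow band in every set, at 14.94, 14.80 and 14.86 in C57 mice, 14.94, 14.79 and 14.74 in the Ex3aERKO littermates and 14.51, 14.53 and 14.87 in the ERaUtcKO littermates. The vehicle arrays were at 13.56, 13.24 and 13.54, at 11.88 and 12.16 and at 11.62, 11.83 and 11.95. The group means differed by 1.42, 2.80 and 2.83. The smallest difference was that of the C57 mice, whose 3 vehicle arrays had the highest Alb; the part of this in the Calr values was not tested. Sdf2l1 rose by 1.92 ± 0.14, with 9.61, 10.03 and 9.70 against 8.51, 8.19 and 8.47 in C57 mice, 9.12, 9.40 and 9.56 against 7.06 and 7.13 in the Ex3aERKO littermates and 8.93, 9.21 and 8.97 against 6.77, 7.11 and 6.72 in the ERaUtcKO littermates. All sets were without overlap. Dnajb11 rose by 1.90 ± 0.14, Hyou1 by 1.60 ± 0.12, Hspa5 by 1.52 ± 0.15 and Hsp90b1 by 1.22 ± 0.10. The isomerases Pdia6, P4hb and Pdia3 rose by 2.27 ± 0.16, 2.21 ± 0.11 and 1.74 ± 0.11. Dnajb9 was the one chaperone gene that fell, by 0.26 ± 0.10 (adjusted p = 0.0187), and it differed by 0.077 in the Ex3aERKO littermates alone.

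Ddit3 showed the largest fall, by 0.90 ± 0.12 (adjusted p = 1.19e-08). Its E2 arrays were at 9.82, 9.84 and 9.66 in C57 mice, 9.75, 9.59 and 10.01 in the Ex3aERKO littermates and 10.10, 10.30 and 10.06 in the ERaUtcKO littermates. The vehicle arrays were at 10.70, 10.63 and 10.70, at 10.77 and 10.81 and at 10.72, 10.94 and 11.27. No E2 array of a set reached its vehicle arrays. A second probe set annotated to Ddit3 differed by -0.88, -1.09 and -1.35 in the 3 sets. Ppp1r15a, whose C57 arrays were below that background level under vehicle and after E2, fell by 0.25 ± 0.09, Ern1 was at -0.07 ± 0.07 (adjusted p = 0.407) and Atf6 at 0.05 ± 0.04, the last turning to a called -0.16 under quantile normalization. Xbp1 stayed above vehicle by 0.69 ± 0.10 and Eif2ak3 rose by 0.62 ± 0.06. Without the 7 arrays of high Alb, 29 genes rose and 1, Ddit3, fell. Those arrays include every C57 vehicle array, so the vehicle arrays in this count are those of the littermates alone.

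In ER-associated degradation 5 of 7 genes rose at 24 h, namely Edem1 (0.90), the rhomboid-like Derl2 (0.84) and Derl1 (0.81), the ligase adaptor Sel1l (0.59) and the ligase Syvn1 (0.49). Herpud1 was at -0.18 ± 0.13 and Derl3 at 0.03 ± 0.08. Epithelial, stromal and muscle markers also changed at 24 h of E2. All 11 epithelial genes rose, and their summed log2 level ran from 16.11 to 16.81 after E2 against 14.02 to 14.74 under vehicle, with no overlap in any set. Of 8 stromal genes 6 rose, most of all Col1a1 (3.13), and 2 fell, most of all Dcn (-1.11), with a median of 1.02. Their summed level was nevertheless below vehicle without overlap in both sets of littermates. It ran from 18.07 to 18.12 against 18.81 to 18.83 in the Ex3aERKO littermates and from 18.07 to 18.16 against 18.33 to 18.46 in the ERaUtcKO littermates. In the C57 mice the stromal sum overlapped vehicle (18.61 to 18.68 against 18.44 to 18.61). Of 8 smooth muscle genes 6 rose, and of 8 plasma cell and B cell genes 2 rose and 3 fell. What part changes in cell types have in the member values was not tested.

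**Figure D2:**
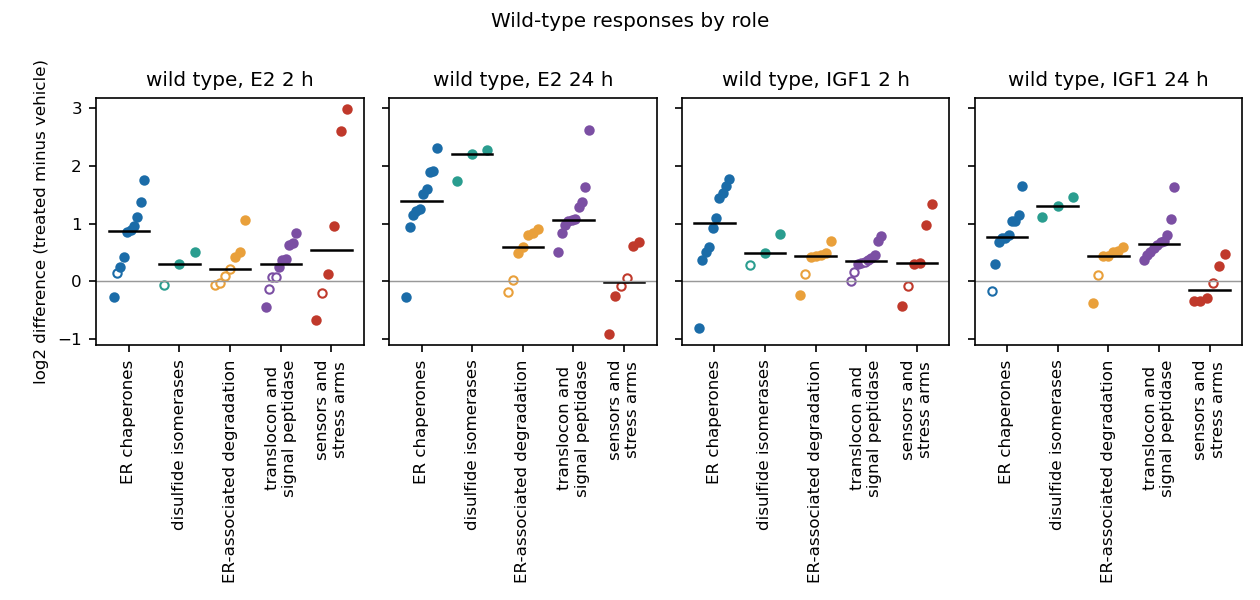
Difference in log2 intensity between treated and vehicle wild-type arrays for each of the 36 genes, by role, with a panel for each treatment; filled points passed the test (limma adjusted p under 0.05), open points did not, and the bar is the median of the role. At 24 h of E2 the medians stand at 1.39 for chaperones and 2.21 for isomerases against -0.01 for the sensors and stress arms, while at 2 h the 2 highest points are those of Ern1 and Ppp1r15a.

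IGF1 at 2 h raised 9 of the 10 chaperone genes and, of the stress arms, Ddit3 most. In the wild types 27 genes rose and 3 fell, where 16.9% of all genes rose and 19% fell (35.9% called), from 7 treated arrays. Hspa5 rose most, by 1.78 ± 0.16 (adjusted p = 2.94e-12), with 13.17, 12.92 and 13.36 in the Ex3aERKO littermates and 12.67 and 13.22 in the ERaUtcKO littermates, all above the vehicle arrays given above. Creld2, Dnajb11 and Hyou1 rose by 1.66 ± 0.15, 1.53 ± 0.16 and 1.44 ± 0.13, and Calr by 1.10 ± 0.18. Sdf2l1 rose by 0.52 ± 0.15, and 1 of its arrays, replicate 1 of the Ex3aERKO littermates, stood above the others of its group (8.72, 7.54 and 7.66).

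Ddit3 rose by 1.34 ± 0.12 (adjusted p = 1.02e-11, 2.53-fold) after 2 h of IGF1. The treated arrays were at 12.10 and 12.04 in C57 mice, 11.94, 12.76 and 12.37 in the Ex3aERKO littermates and 11.65 and 12.10 in the ERaUtcKO littermates. All of them lay above every vehicle array of their set. The second probe set differed by 1.18, 1.37 and 0.63 in the same sets. Ern1 and Ppp1r15a rose by 0.31 ± 0.08 and 0.32 ± 0.10. Xbp1 rose by 0.98 ± 0.10, to 11.63, 11.91 and 11.55 in the Ex3aERKO littermates and 10.96 and 11.63 in the ERaUtcKO littermates. Dnajb9 fell most, by 0.81 ± 0.10 (adjusted p = 1.73e-08), and Eif2ak3 fell by 0.43 ± 0.06. For Dnajb9 the C57 arrays were at 11.62 and 11.56 against 12.70, 12.64 and 12.53 under vehicle, with no overlap. Sec61b was at 0.33 ± 0.16 (adjusted p = 0.107), and 7 of the 10 translocon and signal peptidase genes rose, none by more than 0.79 (Sec61a1). Beside these values, the summed level of the 8 stromal genes was below vehicle without overlap in every set, at 18.18 to 18.19 against 18.44 to 18.61 in C57 mice, 17.84 to 18.01 against 18.81 to 18.83 in the Ex3aERKO littermates and 17.95 to 18.12 against 18.33 to 18.46 in the ERaUtcKO littermates. Of these genes 2 rose and 3 fell, while 6 of 8 smooth muscle genes rose and 1 fell. The summed level of 6 neutrophil genes was 15.26 on 1 IGF1 array of the Ex3aERKO littermates, against 8.71 at most under vehicle there. The part of these markers in the member values was not tested.

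At 24 h of IGF1 the isomerases, chaperones and translocon genes were high again, with medians of 1.32, 0.77 and 0.66, and the sensors and stress arms were at -0.15. Of the 36 genes 29 rose and 4 fell, where 19.3% of all genes rose and 21.6% fell (40.9% called). The count of called genes was 15 in the Ex3aERKO littermates alone, where replicate 2 was low among the IGF1 arrays (Hspa5 at 11.79, 11.23 and 12.12). Calr rose most, by 1.66 ± 0.17 (adjusted p = 1.88e-10, 3.16-fold), with 14.40, 14.82 and 14.73 in C57 mice, 13.90, 13.04 and 14.40 in the Ex3aERKO littermates and 14.02, 13.77 and 13.99 in the ERaUtcKO littermates. Ssr2 rose by 1.64 ± 0.17, P4hb by 1.46 ± 0.11, Pdia6 by 1.31 ± 0.16 and Sec61b by 1.09 ± 0.15. Hspa5 and Sdf2l1 were 1.04 ± 0.15 and 1.05 ± 0.14 above vehicle.

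All 10 translocon and signal peptidase genes rose, and 9 of the 10 chaperones. Dnajb9 did not pass the test at -0.17 ± 0.10 (adjusted p = 0.155). The genes that fell were Derl3, by 0.37 ± 0.08, Ppp1r15a, by 0.34 ± 0.09, Ddit3, by 0.34 ± 0.12, and Ern1, by 0.28 ± 0.07. Derl3 is among the genes with an ERSE match shown above and was the one of those 9 that rose after neither hormone at either time. Its wild-type arrays ran from 6.06 to 7.70. The 95th percentile of the background control probe sets was 6.89 in C57, 5.63 in the Ex3aERKO and 5.89 in the ERaUtcKO experiment, so its differences are uncertain. The other 8 genes with a match rose in each of the 4 wild-type comparisons. Of the 20 measured genes with a promoter entry and no match, 11, 15, 14 and 15 rose at 2 h and 24 h of E2 and at 2 h and 24 h of IGF1. Of all genes 17.2%, 24.5%, 16.9% and 19.3% rose in the same order. Of the markers, 5 of 11 epithelial genes rose at 24 h of IGF1, and their summed level was above vehicle without overlap in both sets of littermates (15.09 to 15.31 against 14.48 to 14.74, and 14.83 to 14.90 against 14.02 to 14.73) and overlapped it in the C57 mice (14.31 to 14.58 against 14.30 to 14.45). Of 8 stromal genes 6 rose and 1 fell. Their summed level was below vehicle without overlap in both sets of littermates. It ran from 18.22 to 18.72 against 18.81 to 18.83 in the Ex3aERKO littermates and from 18.21 to 18.25 against 18.33 to 18.46 in the ERaUtcKO littermates. In the C57 mice the stromal sum overlapped vehicle (18.38 to 18.72 against 18.44 to 18.61). All 8 smooth muscle genes and 4 of 7 macrophage genes rose. The summed level of 6 neutrophil genes was above vehicle without overlap in every wild-type set. It ran from 9.60 to 10.29 against 9.24 to 9.53 in C57 mice and from 9.38 to 11.32 against 8.32 to 8.71 in the Ex3aERKO littermates. In the ERaUtcKO littermates it ran from 11.76 to 12.13 against 8.91 to 10.33. What part these markers have in the member values was not tested.

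Set against each other at 2 h, the hormones differed most in the stress arms. Over the wild types 7 genes were higher after E2 and 9 after IGF1, where 9.6% of all genes were higher after E2 and 12.4% lower (22% called). With each array centred on its median these were 7 and 6. Ern1 and Ppp1r15a were higher after E2 by 2.68 ± 0.07 and 2.29 ± 0.10, and Ddit3 was lower by 1.54 ± 0.12 (adjusted p = 1.41e-13). No Ddit3 array of a wild-type E2 2 h group reached an IGF1 2 h array of its set. Dnajb9 and Herpud1 were higher after E2 by 0.55 ± 0.10 and 0.57 ± 0.13, and Sec11c lower by 0.61 ± 0.09. Hspa5 differed by -0.01 ± 0.15 (95% confidence interval -0.32 to 0.29), Xbp1 by -0.03 ± 0.10 (-0.23 to 0.17), Sec61b by -0.24 ± 0.15, Calr by -0.21 ± 0.17 and Sdf2l1 by -0.37 ± 0.14.

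At 24 h the hormones differed along the folding and entry genes. There 26 genes were higher after E2 and 1 lower, where 15.3% of all genes were higher and 12.9% lower (28.1% called). In the C57 mice alone the count was 9. Ssr2 was higher by 0.99 ± 0.17, Pdia6 by 0.96 ± 0.15, Sdf2l1 by 0.87 ± 0.13, Calr by 0.65 ± 0.16, Sec61b by 0.55 ± 0.14 and Hspa5 by 0.47 ± 0.14. Ddit3 was the 1 gene lower after E2, by 0.56 ± 0.11 (adjusted p = 0.000113). Xbp1 and Dnajb9 did not pass the test at 0.22 ± 0.09 and -0.09 ± 0.09.

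Between 2 h and 24 h of E2, 23 genes rose and 5 fell, where 27.1% of all genes rose and 24.1% fell (51.2% called). P4hb rose most, by 2.26 ± 0.11, from 12.61, 12.70 and 12.60 to 15.24, 15.26 and 15.26 in the Ex3aERKO littermates, and Ern1 fell most, by 3.06 ± 0.07. Ppp1r15a fell by 2.86 ± 0.09, Herpud1 by 1.25 ± 0.12 and Ddit3 by 0.71 ± 0.11. Hspa5 did not pass the test between 2 h and 24 h, at -0.25 ± 0.14 (-0.53 to 0.04), while Calr, Sdf2l1 and Sec61b rose further by 1.43 ± 0.16, 1.78 ± 0.13 and 1.55 ± 0.14. Between 2 h and 24 h of IGF1, 16 rose and 10 fell, where 20.1% of all genes were higher and 15.2% lower (35.3% called). P4hb again rose most, by 1.18 ± 0.12, and Ddit3 fell most, by 1.68 ± 0.12. Hspa5, Creld2, Hyou1 and Dnajc3, the gene of a BiP co-chaperone and PERK inhibitor, fell by 0.73, 0.91, 0.64 and 0.64. Dnajb9 rose by 0.64 ± 0.10.

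Under vehicle, few of these genes passed the test between knockout and littermate tissue. In Ex3aERKO mice no member passed the test against littermates with limma (1 gene had an unadjusted p under 0.05, from 2 arrays on each side), where 1.56% of all genes were higher and 1.4% lower (2.96% called). In ERaUtcKO mice 2 genes were lower, Sec11c by 0.85 ± 0.14 (adjusted p = 0.000767) and Dnajc3 by 0.42 ± 0.11 (adjusted p = 0.0356), where 2.01% of all genes were higher and 2.16% lower (4.17% called). Sec11c was at 8.79, 8.87 and 9.19 in the knockouts against 9.86, 9.83 and 9.71, with no overlap. The count of 2 became 1 without the 7 arrays of high Alb, 4 without knockout replicate 3, when Dnajb11 and Dnajb9 were also lower, and 1 without any other single vehicle array. The epithelial marker sum was higher in knockout than in littermate vehicle tissue in both experiments (15.85 to 15.98 against 14.48 to 14.74, and 14.91 to 15.32 against 14.02 to 14.73).

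The response to E2 at 2 h was reduced in both knockouts for Ern1, Ppp1r15a and Hspa5. In Ex3aERKO mice no member was called against vehicle with limma (11 had an unadjusted p under 0.05), where 0.116% of all genes were higher and 0.0332% lower (0.149% called). Ern1 stood at 8.27 and 8.10 after E2 and 8.02 and 8.11 under vehicle, and Ppp1r15a at 7.25 and 7.01 and 6.98 and 7.05. Over the 10 measured chaperone genes the median difference was 0.53 (-0.0042 to 1.14) in these knockouts and 1.12 in their littermates. These knockout groups hold 2 arrays each, which limits what could be called. The test of the difference between knockout and littermate responses called 6 members, 1 with a higher and 5 with a lower response, where 4.58% of all genes were higher and 4.85% lower (9.43% called). For Ern1 the knockout response was lower than that of the littermates by 2.92 ± 0.17 (adjusted p = 6.67e-09). This difference of responses, or interaction, was -2.59 ± 0.24 for Ppp1r15a, -1.46 ± 0.38 for Hspa5 (adjusted p = 0.018), -1.28 ± 0.35 for Creld2 and -0.97 ± 0.28 for Dnajb11. It was positive for Eif2ak3, at 0.83 ± 0.20 (adjusted p = 0.0102), which fell in the littermates and was at 0.11 ± 0.14 in the knockouts. The count of 6 fell to 3 without knockout E2 replicate 3, without knockout vehicle replicate 3 or without littermate vehicle replicate 2. Xbp1 and Calr did not pass the test, with 95% confidence intervals of -1.08 to 0.12 and -0.94 to 0.62.

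In ERaUtcKO mice a few members rose at 2 h of E2. Of the 36 genes 4 rose and none fell (13 had an unadjusted p under 0.05), where 0.398% of all genes were higher and 0.0929% lower (0.491% called). They were Dnajb11 at 0.72 ± 0.16, Ern1 at 0.70 ± 0.10, Hspa5 at 0.68 ± 0.12 and Dnajc3 at 0.51 ± 0.11. Ern1 stood at 9.32, 9.31 and 9.17 against 8.74, 8.54 and 8.43 under vehicle, and Hspa5 at 11.78, 11.59 and 11.45 against 10.97, 10.94 and 10.88, both without overlap and far below the littermates given above. The count of 4 varied with the arrays and settings. It was 2 with each array centred on its median, 2 with the replicate number as a block, 0 without the 7 arrays of high Alb, which leaves 1 knockout vehicle array, and 1 to 3 with any single array left out. The lowest count, 1, came without E2 replicate 1, a count of 3 came without vehicle replicate 3, and each of the other 4 arrays gave 2.

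Against their littermates, 10 members differed in ERaUtcKO mice at 2 h of E2, 2 with a higher and 8 with a lower response, where 6.7% of all genes were higher and 7.08% lower (13.8% called). These were 0 and 10 with each array centred on its median and 3 and 7 under quantile normalization. The interaction was -2.42 ± 0.24 for Ppp1r15a (adjusted p = 1.59e-07), -2.11 ± 0.15 for Ern1, -1.33 ± 0.18 for Hspa5, -1.22 ± 0.23 for Herpud1 and -0.78 ± 0.17 for Xbp1. The higher responses were those of Sec11c (0.64 ± 0.20) and Eif2ak3 (0.49 ± 0.15), which fell in the littermates. Ppp1r15a stood at 7.77, 7.95 and 7.81 in the E2-treated knockouts and 7.50, 7.51 and 7.82 under vehicle, so the groups overlapped, whereas the littermate E2 arrays were at 10.56, 9.51 and 9.98.

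At 24 h of E2 neither knockout showed a called member against its own vehicle with limma (5 and 0 members had an unadjusted p under 0.05 in Ex3aERKO and ERaUtcKO), and 0% of all genes were called in either. Calr stood at 11.52 and 11.91 in E2-treated Ex3aERKO mice against 11.76 and 12.09 under vehicle. In the ERaUtcKO mice it stood at 11.44, 11.76 and 11.86 against 11.66, 11.84 and 11.91. The groups overlapped in both, and the littermates after E2 were between 14.51 and 14.94 in the 2 experiments. For Ssr2 the knockout E2 arrays were at 10.79 and 10.45 and at 10.92, 11.22 and 11.02, none above 11.22, and the littermates after E2 were at 13.96 or more.

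The interaction at 24 h of E2 was called for 25 members in Ex3aERKO mice, all with a lower response, where 6.34% of all genes were higher and 10.5% lower (16.8% called). In ERaUtcKO mice 28 members had a lower and 1 a higher response, where 15.5% of all genes were lower and 17.3% higher (32.9% called), around a median of 0.13 over all genes. In both experiments 9 of 10 chaperones, the 3 isomerases and 9 of 10 translocon and signal peptidase genes responded less. The interaction for Calr was -3.01 ± 0.37 (adjusted p = 3.2e-05) and -2.95 ± 0.25 (adjusted p = 9.77e-09), and for Ssr2 -2.997 ± 0.51 and -3.19 ± 0.32. Values for Sdf2l1 were -2.39 ± 0.45 and -1.99 ± 0.21, for Hspa5 -2.04 ± 0.38 and -1.83 ± 0.18, for Sec61b -1.43 ± 0.41 and -1.93 ± 0.26 and for Xbp1 -1.08 ± 0.28 and -0.99 ± 0.17. Among genes of ER-associated degradation, 2 and 5 of 7 responded less.

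Hspa5, Sdf2l1, Sec61b and Xbp1 were also followed array by array at 24 h of E2. Hspa5 stood at 10.51 and 10.49 after E2 in Ex3aERKO mice against 10.55 and 11.06 under vehicle, and at 10.85, 10.88 and 10.82 against 10.97, 10.94 and 10.88 in ERaUtcKO mice. Sdf2l1 stood at 6.91 and 6.49 against 6.75 and 6.90 and at 6.77, 6.85 and 6.97 against 6.65, 6.82 and 6.57. Sec61b stood at 8.07 and 7.77 against 7.05 and 7.51 and at 7.28, 7.86 and 7.37 against 7.23, 7.49 and 7.79. Every one of these E2 arrays lay below every E2 array of the littermates. Xbp1 stood at 9.76 and 9.67 against 10.09 and 10.10 in Ex3aERKO mice and at 9.86, 10.001 and 9.98 against 9.99, 9.90 and 10.14 in ERaUtcKO mice, where the littermates after E2 had 11.20, 11.27 and 11.21 and 11.33, 11.38 and 11.16. In Ex3aERKO mice the E2 arrays lay above the vehicle arrays for Sec61b and below them for Hspa5 and Xbp1. None of these differences was called.

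Ddit3, which fell in the littermates, did not pass the test of the interaction in either line. Its interaction was 0.46 ± 0.33 in Ex3aERKO (adjusted p = 0.378) and 0.78 ± 0.30 in ERaUtcKO (adjusted p = 0.0503), where the mean of both its probe sets gave a called 0.97. Its level after 24 h of E2 was 10.14 and 10.69 in Ex3aERKO mice, the first of them below and the second within the range of their vehicle arrays (10.68 and 11.24), and 11.06, 10.89 and 10.64 in ERaUtcKO mice, of which the last was below their vehicle arrays (11.15, 10.85 and 10.71). Dnajb9 had an interaction of 0.62 ± 0.19 in ERaUtcKO (adjusted p = 0.018) and 0.34 ± 0.28 in Ex3aERKO. No epithelial marker gene was called at 24 h of E2 in either knockout with limma (0 and 2 of 11 had an unadjusted p under 0.05). Their summed level overlapped vehicle in Ex3aERKO (15.88 to 16.17 against 15.85 to 15.98). In ERaUtcKO it lay above vehicle without overlap (15.43 to 15.77 against 14.91 to 15.32).

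**Figure D3:**
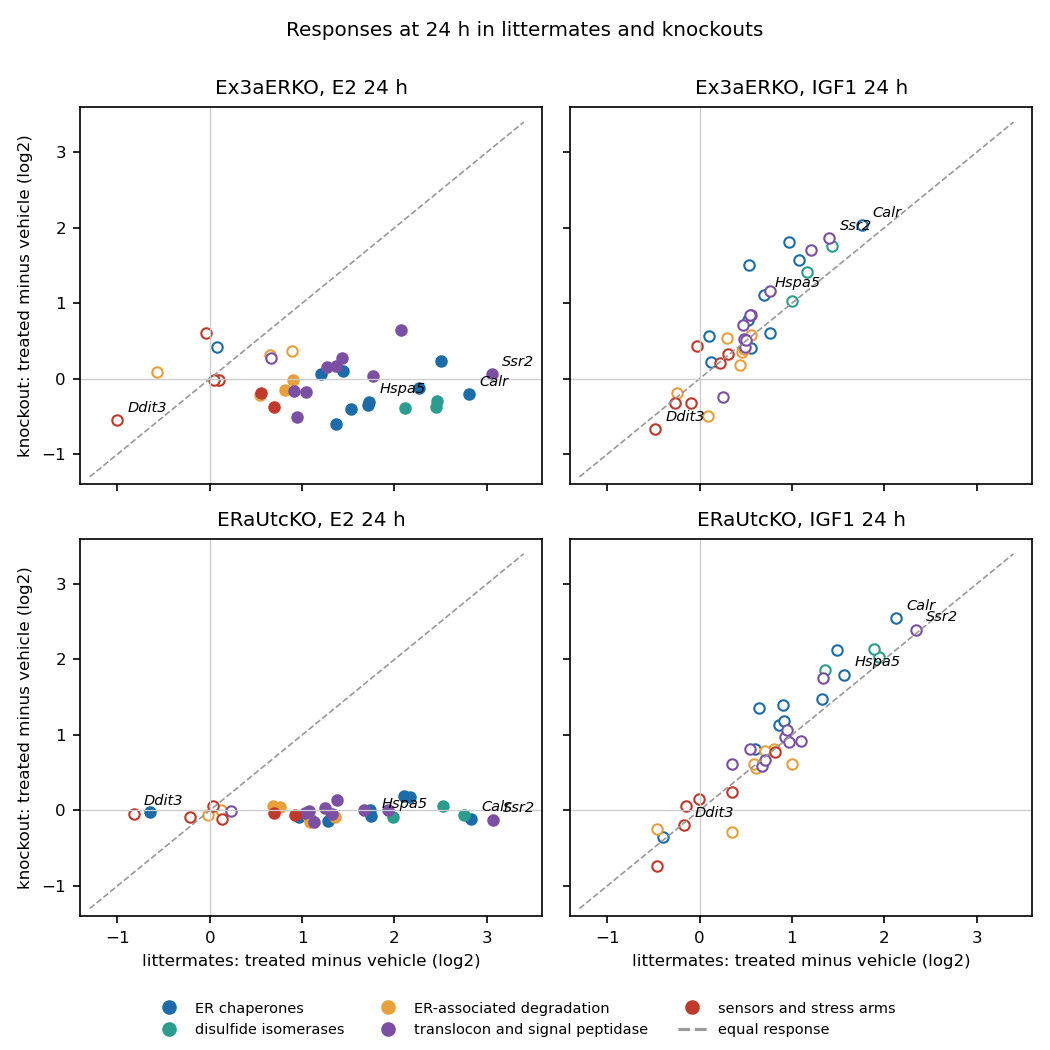
Difference in log2 level between treated and vehicle arrays at 24 h in wild-type littermates (horizontal axis) and in knockouts (vertical axis) for the 36 genes, coloured by role; filled points have a called interaction and the dashed line marks equal responses. After E2 the points of ERaUtcKO mice lie along 0 on the vertical axis (lowest -0.16, highest 0.19). The Ex3aERKO points scatter more widely around it (lowest -0.60, highest 0.64). Calr and Ssr2 are near 3 in the littermates. After IGF1 the points follow the dashed line and no interaction is called.

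The response to IGF1 was present in both knockouts. At 2 h, 11 members rose and 2 fell in Ex3aERKO mice, where 8.61% of all genes were higher and 7.09% lower (15.7% called). In ERaUtcKO mice 20 rose and 2 fell, where 13.1% of all genes were higher and 16.2% lower (29.3% called). Without the arrays of high Alb the ERaUtcKO counts were 12 and 2. Ddit3 rose most in both, by 1.89 ± 0.25 (adjusted p = 2.97e-05) and 2.11 ± 0.21 (adjusted p = 4.62e-08). It stood at 12.85 and 12.85 in Ex3aERKO mice and 13.41, 13.33 and 12.30 in ERaUtcKO mice, above all of their vehicle arrays. The first of the ERaUtcKO arrays is one with high Alb, and without the arrays of high Alb the rise was 1.66 and still called. Dnajb9 fell most in both, by 0.65 ± 0.21 and 0.87 ± 0.14. Hspa5 rose by 1.58 ± 0.28 and 1.73 ± 0.12, Xbp1 by 1.14 ± 0.21 and 1.23 ± 0.12, and Calr by 1.02 ± 0.27 and 0.83 ± 0.17. Sdf2l1 rose in ERaUtcKO mice (0.43 ± 0.15) and was at 0.45 ± 0.33 in Ex3aERKO, and Sec61b was at 0.81 ± 0.30 and 0.06 ± 0.18. The summed stromal level was below vehicle without overlap in ERaUtcKO mice (17.65 to 17.96 against 18.05 to 18.13) and overlapped it in Ex3aERKO mice (16.37 to 17.88 against 17.80 to 18.33), and its part in the member values was not tested.

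No member had a called interaction with genotype at 2 h of IGF1 with limma in either experiment (7 and 5 had an unadjusted p under 0.05), where 0% and 0.511% of all genes were called. For Ddit3 the estimate was 0.33 ± 0.33 in Ex3aERKO (-0.38 to 1.03) and 1.21 ± 0.32 in ERaUtcKO (0.55 to 1.87, adjusted p = 0.106). It was called at 1.31 under quantile normalization and at 1.57 without knockout IGF1 replicate 3, and was 0.76 (adjusted p = 0.636) without the arrays of high Alb. For Hspa5 the intervals of the interaction were -1.34 to 0.25 and -0.48 to 0.29, which in Ex3aERKO include a response lower by more than 1.

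At 24 h of IGF1, 21 members rose and 1 fell in Ex3aERKO mice, where 11.7% of all genes rose and 6.86% fell (18.6% called). The count was 16 and 3 under quantile normalization, where Hsp90b1 was at -0.052, and 11 in all without knockout vehicle replicate 2. In ERaUtcKO mice 28 rose and 2 fell, where 16.9% of all genes rose and 15.5% fell (32.4% called). Calr rose most in both, by 2.04 ± 0.25 (adjusted p = 2.69e-05) and 2.55 ± 0.17 (adjusted p = 4.64e-10), from the vehicle levels given above to 13.96, 13.999 and 13.92 in Ex3aERKO mice and 14.50, 14.25 and 14.30 in ERaUtcKO mice. Ssr2 rose by 1.86 ± 0.35 and 2.40 ± 0.23, P4hb by 1.75 ± 0.18 and 2.14 ± 0.14, and Dnajb11 by 1.81 ± 0.19 and 2.13 ± 0.16. Sec61b, Sdf2l1 and Hspa5 rose by 1.70, 1.57 and 1.11 in Ex3aERKO and by 1.75, 1.47 and 1.80 in ERaUtcKO.

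Sec61b reached 8.54, 9.08 and 9.31 in Ex3aERKO mice and 8.999, 9.18 and 9.59 in ERaUtcKO mice after 24 h of IGF1, and Sdf2l1 reached 8.27, 8.91 and 8.003 and 7.99, 8.26 and 8.21. All of these lay above the vehicle arrays of the same mice. All 10 translocon and signal peptidase genes rose in ERaUtcKO mice and 7 of 10 in Ex3aERKO mice. Ddit3 showed the largest fall in Ex3aERKO mice, by 0.67 ± 0.23 (-0.52 and not called as the mean of both its probe sets), and Ppp1r15a in ERaUtcKO mice, by 0.74 ± 0.17. Xbp1 rose in ERaUtcKO (0.77 ± 0.12) and was at 0.33 ± 0.19 in Ex3aERKO, while Dnajb9 was at 0.22 ± 0.19 and -0.35 ± 0.14. No member had a called interaction with limma in either experiment (4 and 4 had an unadjusted p under 0.05), where 0.0133% and 0.0498% of all genes were called, and Dnajb11 was called in ERaUtcKO, at 0.88, without knockout IGF1 replicate 2. The interval for Calr was -0.47 to 1.01 in Ex3aERKO and -0.09 to 0.93 in ERaUtcKO, and for Ssr2 -0.57 to 1.49 and -0.61 to 0.73. Of 11 epithelial marker genes 4 and 6 rose, with summed levels of 15.61 to 16.55 against 15.85 to 15.98 under vehicle in Ex3aERKO and 15.07 to 15.46 against 14.91 to 15.32 in ERaUtcKO. The summed stromal level was below vehicle without overlap in both, at 16.29 to 16.70 against 17.80 to 18.33 and at 17.26 to 17.66 against 18.05 to 18.13. In ERaUtcKO mice the sums of 8 smooth muscle genes (18.96 to 19.46 against 17.80 to 18.37), 7 macrophage genes (12.56 to 12.98 against 11.21 to 11.96) and 6 neutrophil genes (11.38 to 15.10 against 10.19 to 11.16) were above vehicle without overlap. In Ex3aERKO mice those of macrophage genes (11.33 to 12.02 against 10.55 to 11.22) and neutrophil genes (10.97 to 16.02 against 8.41 to 9.36) were as well, and that of smooth muscle overlapped. The part of these markers in the member values was not tested.

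**Figure D4:**
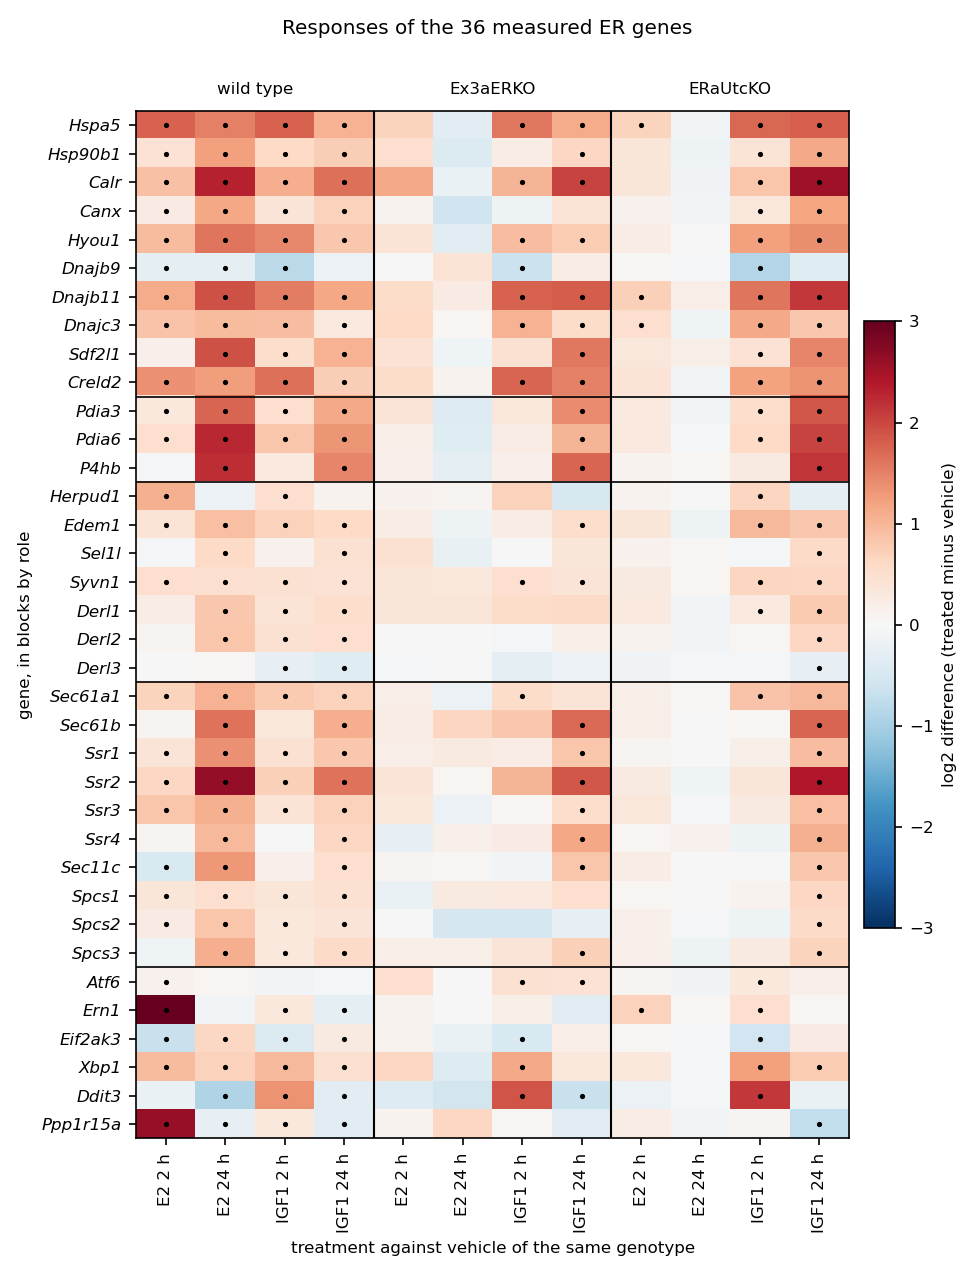
Difference in log2 intensity between treated and vehicle arrays of the same genotype for the 36 genes, in blocks by role, in wild types and both knockouts; red is higher, blue is lower, and a dot marks an adjusted p under 0.05. The E2 24 h column holds 32 dots in wild types and 0 in either knockout, and the IGF1 24 h columns hold 33, 22 and 30.

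Neighbouring steps of the secretory pathway, taken from lists of other genes, also rose at 24 h. Of 15 genes of ER N-glycosylation all rose at 24 h of E2 and of IGF1 in wild types, led by Rpn1, a subunit of the oligosaccharyltransferase (2.66), and by Ostc (1.83). Of all genes 24.5% and 19.3% rose in these comparisons. Of 18 measured genes of COPII export and retrieval 17 rose at both, led by the KDEL receptor gene Kdelr3 (2.38 and 1.82). Of 15 other redox and folding genes 13 rose and 1 fell at 24 h of E2, with Pdia5 (2.20) and the oxidase gene Ero1b (-0.53) at the ends, and 11 rose and 1 fell at 24 h of IGF1. Of 13 partners of translocation 10 rose at 24 h of E2, led by Tram1 (1.41), and 1 fell, Sec62 (-0.16). In both knockouts 0 genes of these 4 lists were called at 24 h of E2 (limma; at most 3 of a list had an unadjusted p under 0.05), whereas 9 and 14 of the 15 N-glycosylation genes and 13 and 17 of the 18 export genes rose at 24 h of IGF1, where 11.7% and 16.9% of all genes rose.

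Most genes of a list drawn up around PERK and ATF4 rose at 2 h, and the activity of PERK was not measured. Of 13 measured genes 10 rose at 2 h of E2, led by Atf3 (2.29), and 1 fell, Nupr1 (-1.27). At 2 h of IGF1 11 rose, led by the asparagine synthetase gene Asns (2.50), and 1 fell. Of all genes 17.2% and 16.9% rose in these comparisons. At 24 h of IGF1 4 rose and 1 fell, where 19.3% of all genes rose. In Ex3aERKO and ERaUtcKO mice 10 and 11 rose at 2 h of IGF1, led in both by Chac1, a glutathione-degrading target of ATF4 (3.88 and 2.97), where 8.61% and 13.1% of all genes rose, and none was called at 2 h of E2 (limma; 1 and 2 had an unadjusted p under 0.05). In ERaUtcKO mice 3 of the 13 responded to IGF1 more than in littermates at 2 h, with Chac1 at 2.07, where 0.332% of all genes did, and an array of high Alb is in that group; its part was not tested. Of 9 heat-shock genes whose products work outside the ER, all rose at 2 h of either hormone, led by Hsph1 (2.89 and 3.08).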

How the data were processed

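RNA from mouse uterus was hybridised to 68 Affymetrix whole-transcript arrays, with 300 ng of total RNA labelled per array, per the labels' protocols. The values are log2 intensities per probe set, as deposited by the authors, and how they were background-corrected, summarised and normalized is not stated in the labels; the highest value in the table is 19.9315, and no member is within 0.01 of it. Array medians differ between the 3 sets of mice, so no value was compared across sets. The number of arrays limits the precision.

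Of 32750 probe sets with a gene in the platform annotation, 30604 had 1 symbol and 2146 had several and were not used; 827 symbols were updated through RefSeq, which left 30142 genes, each with the probe set of highest mean. Promoter entries came from RefSeq (GRCm38.p6).

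limma 3.58.1 in R 4.3.3 (lmFit, eBayes) was fitted to all genes: the 42 wild-type arrays in a model of treatment plus set of mice, and each knockout experiment with a term for each group, where the interaction is the knockout response minus the littermate response. P-values were Benjamini-Hochberg adjusted over all genes within each of 26 comparisons and called under 0.05, two-sided. The fits were tested on simulated data.

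The members and the other gene lists were chosen with earlier results of these data known. All members are named, Hspa5, Calr, Sdf2l1, Ddit3, Dnajb9, Xbp1, Sec61b and the largest called rise and fall of a comparison array by array, and of other pathway lists the largest called rise and fall. Alternatives were centring, quantile normalization, a filter on low values, the mean of a gene's probe sets, eBayes with trend and robust, the replicate number as a block, each mouse set alone and each array left out. Leaving out the 7 arrays with Alb above 14 was added after liver marker levels were seen.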

Additional observations from a re-analysis of the deposited data

Results flagged for a closer look

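For these genes the response to E2 in knockout mice differed from that in wild-type littermates by a test of the difference itself (limma interaction, adjusted p under 0.05); the values below are knockout response minus littermate response, in log2 units. At 2 h, 6 members differed in Ex3aERKO mice, among them Ern1 (-2.92), Hspa5 (-1.46) and Eif2ak3 (0.83). In ERaUtcKO mice 10 members differed at 2 h, among them Ppp1r15a (-2.42), Hspa5 (-1.33), Xbp1 (-0.78) and Sec11c (0.64).

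At 24 h, 25 members differed in Ex3aERKO mice, all with a lower response. The values were -3.01 for Calr, -2.39 for Sdf2l1, -2.04 for Hspa5, -1.43 for Sec61b and -1.08 for Xbp1. In ERaUtcKO mice 29 members differed at 24 h, with -3.19 for Ssr2, -2.95 for Calr, -1.99 for Sdf2l1, -1.93 for Sec61b, -1.83 for Hspa5 and -0.99 for Xbp1. Dnajb9 was the 1 member with a higher response there, at 0.62.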

How the results depend on the processing

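Of the 26 counts of called members, those given here moved by more than 1.5 times under an alternative, and the cause was not tested. In ERaUtcKO mice the count at 2 h of E2 against vehicle was 4, and 2 with each array centred on its median, 2 with trend and robust eBayes, 2 with the replicate block and 0 without the arrays of Alb above 14. The count of knockout against littermate vehicle was 2, and 1 with centring and 1 without those arrays; that at 2 h of IGF1 was 22, and 14 without them; and the interaction at 2 h of IGF1 went from 0 to 1 under quantile normalization. With a single set of wild types and so fewer arrays, E2 at 2 h gave 17 (C57) in place of 26, IGF1 at 2 h 17 (C57) in place of 30, IGF1 at 24 h 15 (Ex3aERKO littermates) in place of 33, and IGF1 at 24 h against 2 h 16 (Ex3aERKO littermates) in place of 26. E2 against IGF1 gave 7 (ERaUtcKO littermates) and 8 (Ex3aERKO littermates) in place of 16 at 2 h, and 9 (C57) in place of 27 at 24 h. With each array left out in turn, the counts ran from 1 to 3 for ERaUtcKO at 2 h of E2, from 1 to 4 for ERaUtcKO under vehicle, from 3 to 6 for the Ex3aERKO interaction at 2 h of E2, from 11 to 22 for Ex3aERKO at 24 h of IGF1 and from 0 to 1 for the ERaUtcKO interactions with IGF1 at 2 h and at 24 h. The signs that turned were those of Atf6 at 24 h of E2 (-0.16), Spcs2 at 2 h of E2 (-0.0041) and Hsp90b1 at 24 h of IGF1 in Ex3aERKO (-0.052) under quantile normalization, of Derl2 at 2 h of E2 (-0.19) and Dnajb11 between 2 h and 24 h of IGF1 (0.027) in C57 mice alone, and of Dnajb9 at 2 h (0.096) and 24 h (0.077) of E2 and Pdia6 between 2 h and 24 h of IGF1 (-0.041) in the Ex3aERKO littermates alone. As the mean of its 2 probe sets, Ddit3 gained the call at 2 h of E2 (-0.39) and in the ERaUtcKO interaction at 24 h of E2 (0.97), and lost it at 24 h of IGF1 in Ex3aERKO (-0.52). Same-numbered replicates did not deviate together on average (mean r of -0.0803, -0.00181 and -0.00889 in the 3 sets), with single pairs from -0.591 to 0.498 in C57. No pairing by number was detected, which does not show that the samples are unpaired. With the replicate block 929 of the members' values kept their direction and side of the threshold, 6 lost the call and 1 gained it. Groups of 2 arrays and genes near background limit what could be called.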
